A study of Mus musculus with 78 samples.

Results

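The contacts described here are those of the Rbm41 promoter on the mouse X chromosome, measured by 4C-seq in mouse embryonic stem cells with and without acute loss of the transcription factor ZFP143. A 4C-seq library counts ligation products between 1 chosen piece of DNA, the viewpoint, and the rest of the genome. The members are the restriction fragments of the 4C map whose midpoint lies within 1 Mb of the middle of the Rbm41 viewpoint, leaving out 20 kb on each side, where the mean signal per fragment is highest. This rule keeps 4606 of the 5972054 fragments of the map, 2361 at lower and 2245 at higher coordinates than the viewpoint. It uses position alone and no measured value.

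All libraries came from ZFP143-FKBP cells, an E14TG2a line (129/Ola background) grown in serum-free 2i/LIF medium, in which the Zfp143 locus carries an FKBP degron with a 2xHA tag, followed by P2A and GFP. The labels divide the 4C libraries into 4C_DMSO, treated with the solvent, and 4C_dTAG_6H, treated for 6 h with 500 nM dTAG-V1, a molecule that sends FKBP-tagged protein to the proteasome. There were 2 libraries in each condition for the Rbm41 viewpoint, described in the study as biological replicates. The DMSO cells carry the same tag, so the comparison is of tagged cells with and without the degrader, and untagged cells were not analysed here. Nascent RNA from the same kind of cells was measured by TT-seq, in which newly made RNA is labelled with 4-thiouridine, in DMSO and at 3 times of dTAG-V1 treatment (2, 6, 24 h), with 2 libraries each.

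ZFP143 is a zinc finger protein that binds near the starts of many genes expressed in most cell types. CTCF is the zinc finger protein at which loop extrusion by cohesin often stops. Contact frequency in 4C-seq falls with distance along the chromosome, and a contact between a promoter and a distant element appears as a rise above that fall. Rbm41 encodes an RNA-binding protein with an RNA recognition motif. Its promoter was chosen as a viewpoint in the study because ZFP143 binds it, its transcription fell early after ZFP143 depletion and it takes part in a chromatin loop, so its binding and its fall in transcription are not findings here.

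The viewpoint spans chrX:139997018-139998029 in the mm10 build (GRCm38), 1012 bp. It lies in the first intron of Rbm41 in each of the 6 annotated transcripts that run across it. Rbm41 is on the minus strand, at chrX:139889511-139998595. Its body therefore extends to lower coordinates, and the next gene, Nup62cl, lies at higher coordinates. The 2 primers that define the viewpoint are printed first, because every contact below was read from them. Each was matched to the genome, the forward primer on the plus strand at chrX:139998010-139998029 and the reverse primer on the minus strand at chrX:139997018-139997037. Capitals mark the MboI site, GATC, at which the first digestion cuts.
Rbm41 forward primer: aaagcacccgaagccaGATC
Rbm41 reverse primer: tatgggtccagctctttcta

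ZFP143 had a peak over the start of Rbm41 at chrX:139998335-139998757, 25.6-fold over input, next to the viewpoint. The 250 bases upstream of the annotated start, chrX:139998596-139998845 on the minus strand (GRCm38, reference sequence from RefSeq), are shown because they hold letters shared with 2 of the 3 other ZFP143 peaks of the locus. Capitals mark a match to ACTACANNTCCCA.
Rbm41 promoter: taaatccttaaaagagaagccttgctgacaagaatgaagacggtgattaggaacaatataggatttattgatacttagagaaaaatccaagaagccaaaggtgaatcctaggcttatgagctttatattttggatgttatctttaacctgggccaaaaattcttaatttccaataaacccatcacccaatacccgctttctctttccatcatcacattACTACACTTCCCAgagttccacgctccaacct

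Within 1 Mb of the viewpoint the ZFP143 list held 4 peaks, all at gene starts, and the CTCF list held 2, neither within 2 kb of the start of a gene. ZFP143 peaks lay at Trap1a (20.8-fold over input), Tbc1d8b (34.6-fold), Rbm41, and the shared start of Psmd10 and Atg4a (13.8-fold). The motif matches in these peaks are printed with 12 bases on each side, to show how the sites resemble each other. Each is written on the strand that holds the match.
Rbm41, chrX:139998603-139998639, minus: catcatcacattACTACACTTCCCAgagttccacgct
Tbc1d8b, chrX:139684856-139684892, minus: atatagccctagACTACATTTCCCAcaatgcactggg
Tbc1d8b, chrX:139684911-139684947, plus: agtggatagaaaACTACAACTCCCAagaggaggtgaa
Psmd10 and Atg4a, chrX:140956874-140956910, plus: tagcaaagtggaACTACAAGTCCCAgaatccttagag

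The Tbc1d8b peak, the highest of the 4, held 2 matches, the Rbm41 and the Psmd10 and Atg4a peaks held 1 each, and the Trap1a peak held none. ACTACANNTCCCA was the most frequent pattern of 6 fixed, 2 free and 5 fixed letters in the ZFP143 peaks of the genome, with both strands searched and each peak counted once, and this shape was chosen after the peaks of the locus had been read. Since the pattern was taken from the ZFP143 peaks, its share in them is a description: 26.6% of the 3189 peaks held a match, against 0.161% of the 22314 CTCF peaks and 1.47% of the 32851 RefSeq promoter windows of 300 bases. Among the 19 protein-coding genes of the locus with a RefSeq promoter window, 4 held a match: Rbm41, Tbc1d8b, Psmd10 and Atg4a. The sequences compared differ in length: in this locus ZFP143 peaks had 418 to 480 bases and CTCF peaks 175 and 218. The study reports ZFP143 motifs in most of its ZFP143 peaks, so a peak without this exact string does not thereby lack a site. A match is a description of the letters and not a measure of binding.

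The 4 Rbm41 libraries were of similar depth. They held 517875 and 465757 reads in DMSO and 549216 and 508534 after dTAG-V1, so that 1 read was worth 1.82 to 2.15 RPM, the unit of reads scaled to library size. Between 79.4% and 83.1% of the reads fell on the X chromosome, and 167026 to 207187 reads per library fell on the member fragments. Values below are mean RPM per fragment, with fragments without reads counted as 0. A fragment without reads in a library could have a level of up to 5.46 to 6.44 RPM, the worth of 3 reads. The embryonic stem cell genes Pou5f1, Sox2, Nanog, Esrrb and Zfp42 were all transcribed in the 8 TT-seq libraries, the lowest value being 46.0 CPM (counts scaled to library size) for Pou5f1. Zfp143 itself, whose protein is the target of the degrader, had 71.3 and 74.4 CPM in DMSO and 161 and 164 CPM at 6 h. Nascent RNA does not measure the loss of the protein, which no library used here records.

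Each member fragment runs from an MboI site to the nearest Csp6I site, and the median length was 148 bases. Of the 4606 fragments, 1492 had no read in any library, while 542, 692, 750 and 1130 were read in 1, 2, 3 and all 4 libraries. The 1130 fragments seen every time held 73.5% of the reads. Fragments never read were more often repeat sequence than those read in every library: 51.0% and 14.9%, respectively, had most of their bases masked as repeats. When the fragments were divided by length into 4 groups of nearly equal number, the shortest and the longest groups held 9.68% and 5.44% of the reads, and the 2 groups between them 41.3% and 43.6%. These shares describe where a contact could be read at all. Of the fragments read in a library, 71.1% to 78.4% were also read in any other, and the Spearman correlation of fragment values between libraries was 0.571 to 0.626, as a description over fragments that share the viewpoint. Single fragments were therefore averaged in windows of 10 kb, 196 in all, which held 9 to 38 fragments and 110 to 31218 reads over the 4 libraries.

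Contacts fell with distance on both sides of the Rbm41 promoter, and in the 3 ranges of distance compared the level was higher toward Nup62cl than toward the Rbm41 body. From 20 to 100 kb, the mean level at lower coordinates was 275.9 and 244.3 RPM per fragment in DMSO and 206.9 and 210.4 after dTAG-V1. On the higher side the same distances held 363.8, 316.5, 390.4 and 348.8 RPM in the same order. All 4 libraries were higher on the Nup62cl side, by a ratio of 1.32, 1.30, 1.89 and 1.66. Beside this, 36.8% of the lower fragments at these distances were never read and 40.9% were mostly repeats, against 12.4% and 14.4% of the higher ones, and their part in the ratio was not tested. Between 100 and 300 kb the ratio was 1.07, 1.18, 1.20 and 1.31, so the sides were closer there. From 300 kb to 1 Mb it was 1.70, 1.90, 1.62 and 1.96, and the higher side stood above the lower in every library. In narrower bins the order was not the same throughout: between 600 and 700 kb the lower side held 47.6, 46.2, 50.1 and 46.0 RPM and the higher side 32.4, 43.3, 37.0 and 37.3, in the same order of libraries.

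At the far end of the lower side, the level was 6.91 RPM per fragment between 800 and 900 kb and 7.62 between 900 kb and 1 Mb, as means of the 4 libraries. At the same distances on the higher side it was 29.1 and 31.7 RPM. Beside these levels, 71.5% and 69.1% of the lower fragments were never read, against 37.4% and 29.9% of the higher ones, and 57.6% and 37.1% of the lower fragments were mostly repeats, against 31.3% and 16.5%. The part of repeat content in the low values was not tested. The step across the inner edge of the member set shows the fall itself: the last 10 kb left out on the lower side held 1067 to 1258 RPM per fragment, and the first 10 kb kept held 343.6 to 517.4. On the higher side these were 632.8 to 749.9 and 438.3 to 543.8.

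**Figure D1:**
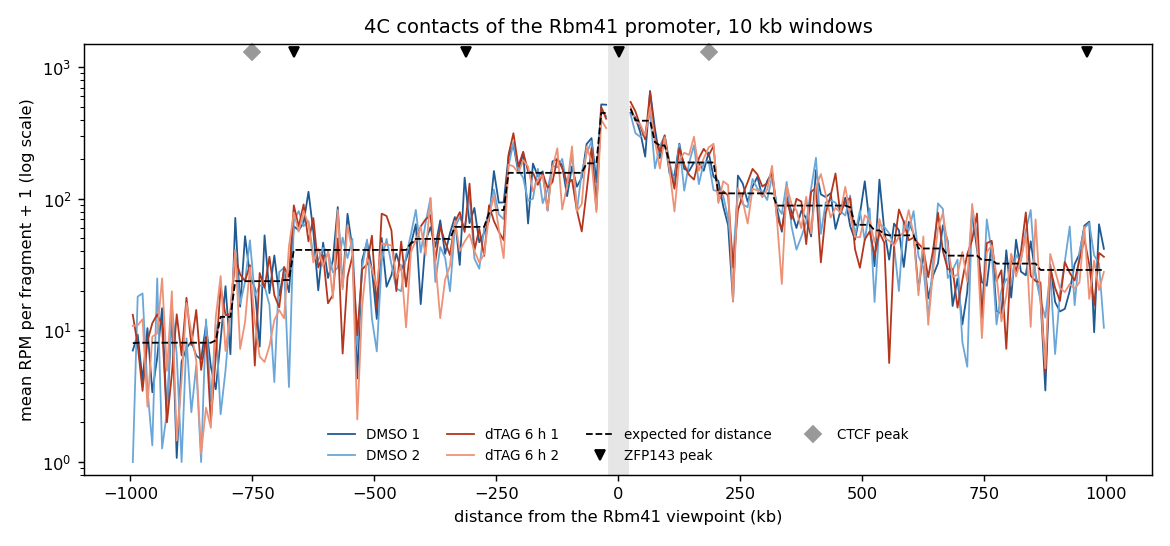
Mean 4C signal (RPM per fragment + 1, log axis) in 10 kb windows against distance from the middle of the Rbm41 viewpoint (kb), with 1 line for each of the 2 DMSO and 2 dTAG-V1 libraries. The dashed line is the level expected for the distance, symbols at the top mark ZFP143 and CTCF peaks, and the grey band is the excluded 20 kb on each side. Signal falls on both sides, the window 60 to 70 kb toward Nup62cl (562 RPM, mean of 4) stands above its neighbours, and the lines of the 4 libraries cross throughout.

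The highest level in RPM lay over the starts of Nup62cl and Pih1h3b, a pair of genes transcribed away from each other. Nup62cl, a gene related in sequence to the nuclear pore protein NUP62, lies at chrX:140006805-140062712 on the minus strand, and Pih1h3b starts at 140062879 on the plus strand. The window 60 to 70 kb from the viewpoint, chrX:140057524-140067523, had 658.6 and 452.6 RPM per fragment in DMSO and 643.5 and 493.4 after dTAG-V1. Its mean of 562 RPM was the highest of the 196 windows, above even the windows nearest the viewpoint, which reached 482.8 on this side. The windows on either side of it held 276.4 and 268.3 RPM. It was 1.44 times the level expected for its distance, the expected level being a curve that can only fall with distance, fitted to each side. This window was singled out after the values had been seen.

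Several fragments contributed to this level. Among the 10 member fragments with the highest mean, 3 lay in this window, 61.0 to 63.5 kb from the viewpoint and inside Nup62cl, and another lay in the window before it, at 59.1 kb. The highest of them, chrX:140058765-140058911, had 2311 and 1621 RPM in DMSO and 2037 and 1756 RPM after dTAG-V1. The highest member fragment of all, chrX:139961755-139961967 in the body of Rbm41, had 1724 and 2123 RPM in DMSO and 3540 and 1601 RPM after dTAG-V1. Neither the ZFP143 nor the CTCF list had a peak in the window at Nup62cl.

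ZFP143 depletion left the level at Nup62cl within the spread of the replicates. Over the 10 kb centred on the Nup62cl start, the 26 fragments had 682.4 and 465.9 RPM in DMSO (574 ± 153, SD, n = 2) and 662.2 and 509.2 RPM after dTAG-V1 (586 ± 108, SD, n = 2). The 2 dTAG-V1 libraries lay between the 2 DMSO libraries. The log2 change was 0.04 with a standard error of 0.47 and a 95% interval from −0.91 to 0.99 (limma, adjusted p = 0.929 over 27 regions). For the window of 60 to 70 kb, in the fit over all windows, it was 0.05 with a 95% interval from −0.45 to 0.54 (limma, adjusted p = 0.984). The sign of the window's change turned with the library left out: it was −0.22 without DMSO replicate 2 and −0.15 without dTAG_6H replicate 1, but 0.32 without DMSO replicate 1 and 0.24 without dTAG_6H replicate 2. The region of Pih1h3b overlaps that of Nup62cl and had a log2 change of 0.08.

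**Figure D2:**
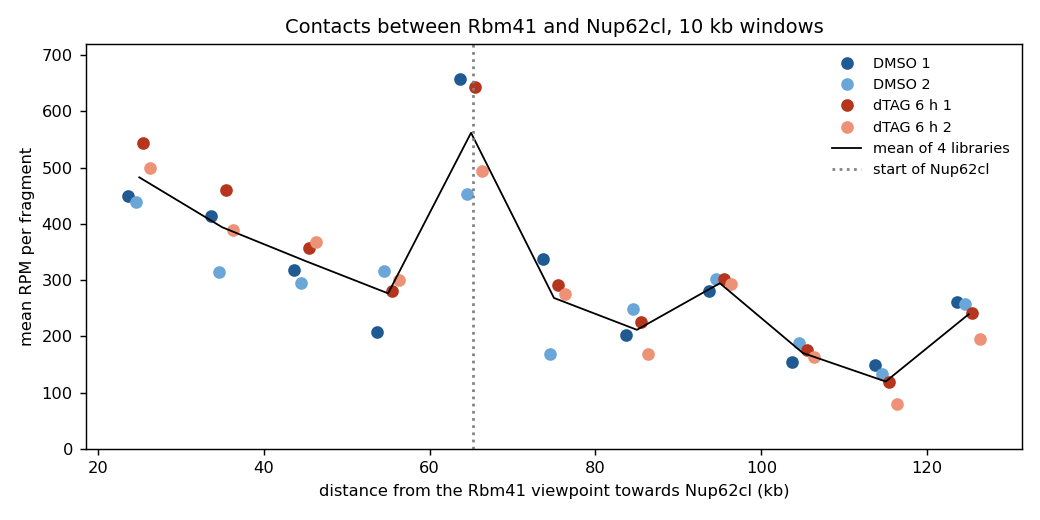
Mean RPM per fragment in each of the 4 libraries in the 10 kb windows from 20 to 130 kb from the viewpoint on the Nup62cl side, plotted against distance (kb), with a line through the means and a dotted line at the Nup62cl start. The window at 60 to 70 kb holds 452.6 to 658.6 RPM in the 4 libraries, and the points of the 2 conditions overlap there.

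The regions at the other ZFP143 peaks were above the level expected for their distance, and none of them passed the test for a change. At the Tbc1d8b start, 312.6 kb from the viewpoint toward lower coordinates, the region held 145.2 and 97.8 RPM per fragment in DMSO and 89.5 and 61.9 after dTAG-V1. Tbc1d8b belongs to the TBC family of regulators of Rab GTPases. Both dTAG-V1 libraries were below both DMSO libraries, with a log2 change of −0.67, a standard error of 0.29 and an interval from −1.25 to −0.09, and limma's adjusted p was 0.186. Leaving out 1 library moved the change from −0.95 to −0.39: it was −0.39 without DMSO replicate 1 and −0.41 without dTAG_6H replicate 2, and without dTAG_6H replicate 1 it was −0.93 and passed the threshold (limma, adjusted p = 0.0092). In such a fit the condition with 1 library left is assumed to vary like the other, whose 2 libraries alone give the residual spread. With 2 kb on each side the change was −1.40 (limma, adjusted p = 0.237).

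At Trap1a, which encodes the tumour rejection antigen P1A and lies 663.7 kb away on the same side, the level was 39.1 and 63.3 RPM in DMSO and 68.8 and 72.6 after dTAG-V1. Both dTAG-V1 libraries were above both DMSO libraries, with a log2 change of 0.50 (limma, adjusted p = 0.261), which was 0.16 without DMSO replicate 1 and 0.84 without DMSO replicate 2. The region centred on the Trap1a start itself, which overlaps it, had 59.2 and 63.5 RPM in DMSO and 74.0 and 71.6 after dTAG-V1, a log2 change of 0.24 (limma, adjusted p = 0.624). At the shared start of Psmd10, a chaperone of proteasome assembly, and Atg4a, a protease of autophagy, 959.4 kb away on the higher side, the level was 65.0 and 62.4 RPM in DMSO and 52.8 and 35.9 after dTAG-V1. The 2 conditions did not overlap, and the log2 change was −0.54 (limma, adjusted p = 0.261). It passed when dTAG_6H replicate 1 was left out, with the residual spread then taken from the 2 DMSO libraries alone (log2 change −0.81, limma, adjusted p = 0.0113), and when the region was widened to 10 kb on each side (−0.75, limma, adjusted p = 0.0296), but without dTAG_6H replicate 2 the change was −0.27 (limma, adjusted p = 0.4998).

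These 3 ZFP143 regions stood at 1.64, 1.53 and 1.94 times the level expected for their distance, in the order Tbc1d8b, Trap1a, and Psmd10 with Atg4a. Of the 196 windows, 12, 19 and 3 had a ratio at least as high. Gene starts without a ZFP143 peak ran from 0.49 times (Gm15013) to 1.73 times (Mid2), with Ripply1 at 1.62 and Nup62cl at 1.48. Ratios of this size were therefore not particular to ZFP143 sites. The 2 CTCF regions, at 750 kb on the lower and 185.7 kb on the higher side, were at 1.07 and 1.13 times the expected level. The CTCF region at 750 kb had 29.6 and 34.1 RPM in DMSO and 10.5 and 22.8 after dTAG-V1, a log2 change of −0.98 (limma, adjusted p = 0.261). Without dTAG_6H replicate 2, again with the residual spread of the DMSO libraries alone, it passed the threshold (−1.51, limma, adjusted p = 0.0387), without dTAG_6H replicate 1 it was −0.46 (limma, adjusted p = 0.429), and with 10 kb on each side it was −0.52 (limma, adjusted p = 0.321). The CTCF region at 185.7 kb overlapped between conditions, with 216 and 189 RPM in DMSO and 205 and 236 after dTAG-V1. Of the 22 gene starts outside the excluded 20 kb, 17 had a region above the expected level, against 86 of the 196 windows (43.9%). The 17 are not all separate: Psmd10 and Atg4a have the same fragments. Nup62cl overlaps Pih1h3b, and Serpina7 overlaps 4930513O06Rik. The expected level was fitted to the windows and not to these regions. Ripply1, which encodes a transcriptional corepressor of somite formation, was among the 3 gene starts named for their level, with 255.7 and 267.6 RPM in DMSO and 314.0 and 175.3 after dTAG-V1, so that its groups overlapped.

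**Figure D3:**
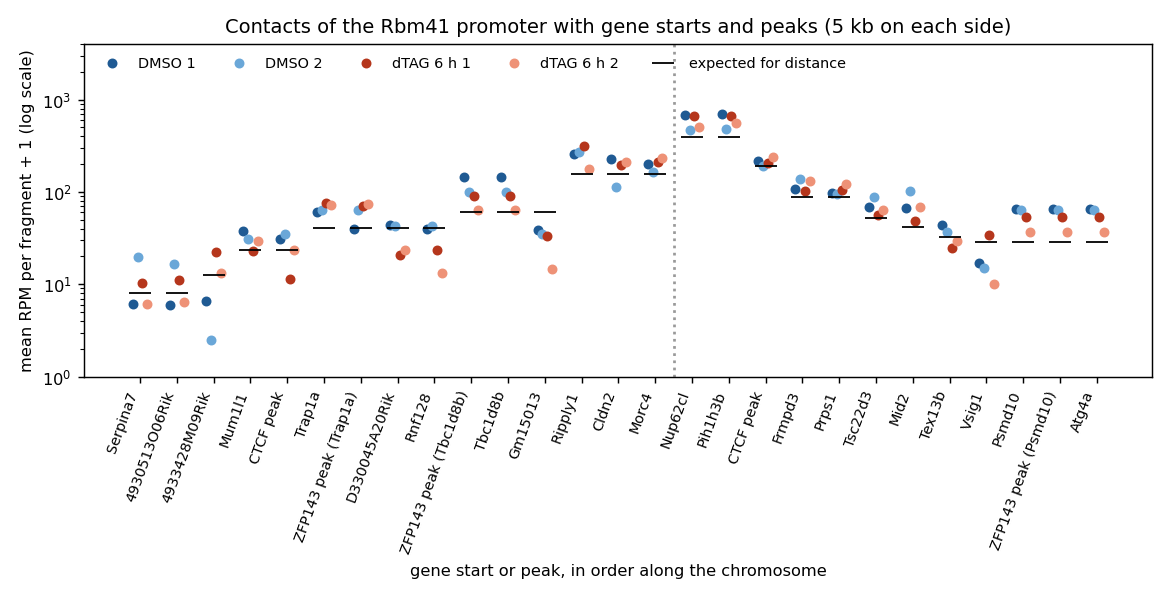
Mean RPM per fragment + 1 (log axis) in regions of 10 kb at gene starts and at ZFP143 and CTCF peaks in their order along the chromosome, with 1 point per library, a black dash for the level expected at that distance and a dotted line at the viewpoint. The points at Nup62cl overlap, and at Tbc1d8b and at Psmd10 with Atg4a both dTAG-V1 points are below both DMSO points.

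Across all 27 regions the test called none lower and none higher (0.0% in both directions, limma, adjusted p under 0.05), and edgeR's quasi-likelihood test on the recovered reads called 0 as well. At an unadjusted p under 0.05, 4 regions were lower (14.8%) and 0 higher. They were those of Tbc1d8b, its ZFP143 peak, which has the same fragments, D330045A20Rik, and Rnf128, which encodes an E3 ubiquitin ligase. D330045A20Rik had 42.3 and 41.9 RPM in DMSO and 19.5 and 22.6 after dTAG-V1, a log2 change of −0.97 (limma, adjusted p = 0.186), which was −0.87 without dTAG_6H replicate 1 (limma, adjusted p = 0.0215) and −1.07 without dTAG_6H replicate 2 (limma, adjusted p = 0.0387). Rnf128 had 38.4 and 41.4 RPM in DMSO and 22.6 and 12.1 after dTAG-V1, a log2 change of −1.22 (limma, adjusted p = 0.186). Its change was −1.64 without dTAG_6H replicate 1, which leaves a single dTAG-V1 library. Both dTAG-V1 libraries were below both DMSO libraries in 12 regions (44.4%) and above in 5 (18.5%), and the median log2 change was −0.38. The regions share fragments where they overlap, and 24 of them had distinct sets. Tbc1d8b has the fragments of its ZFP143 peak, and Psmd10 those of Atg4a and their peak, so counts of regions hold these more than once. Over all 196 windows, both dTAG-V1 libraries were below in 40 (20.4%) and above in 32 (16.3%), with a median log2 change of 0.01. The number of regions called ran from 0 to 8 when 1 library was left out, with 8 lower without dTAG_6H replicate 1 and 3 lower without dTAG_6H replicate 2, each from a single dTAG-V1 library.

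The windows answer whether the contact profile as a whole moved within 6 h of ZFP143 depletion. None of the 196 windows was called lower or higher (0.0% by limma and 0.0% by edgeR, adjusted p under 0.05), and the smallest adjusted p was 0.319. At an unadjusted p under 0.05, limma gave 5 windows lower (2.55%) and 8 higher (4.08%), and edgeR gave 12 in all, 7 lower and 5 higher. Log2 changes ran from −1.91 to 2.41, with 97 negative and 99 positive. The spread between the conditions was about that between replicates: the SD of the log2 differences over windows was 0.947 and 0.844 for the 2 pairs within a condition and 0.854 to 1.02 for the 4 pairs between conditions. Correlations of the window values between libraries, given as a description over windows that share libraries, were 0.831 to 0.871 (Pearson) and 0.864 to 0.892 (Spearman).

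A missed threshold does not show that contacts stayed the same, and the precision varied along the profile. The 95% interval of the change lay within a 2-fold change in either direction for 50 of the 196 windows (25.5%). These were mostly the stronger contacts: 36 of the 48 windows with a mean of at least 100 RPM, against 14 of the 148 weaker ones. For the rest of the weaker windows the interval included a change of 2-fold or more in at least 1 direction.

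**Figure D4:**
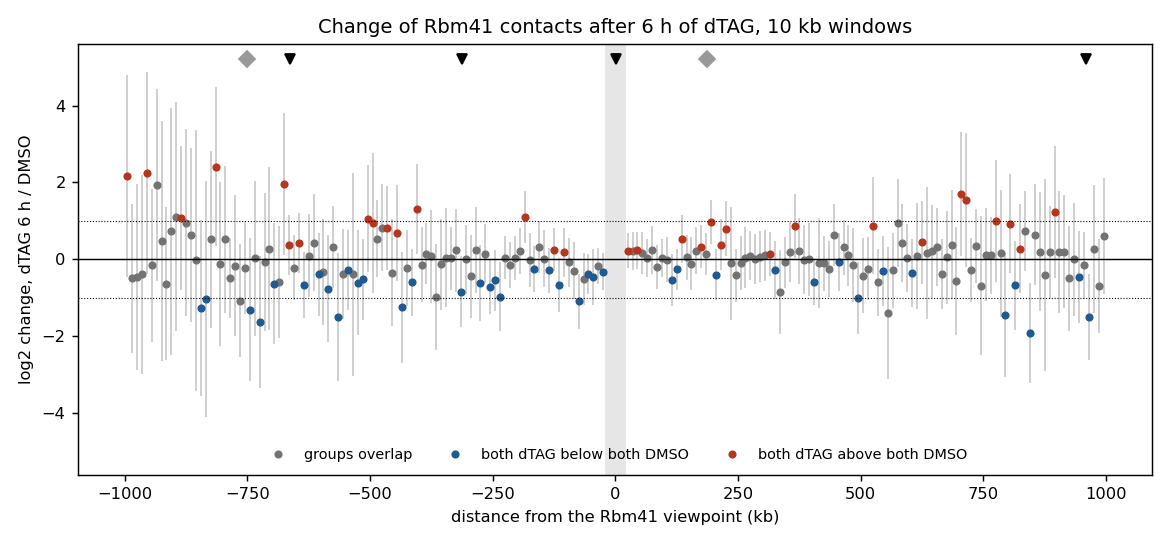
Log2 change after dTAG-V1 against DMSO in each of the 196 windows, plotted against distance from the viewpoint (kb), with the 95% interval of limma as a vertical line, colours for windows whose conditions do not overlap and dotted lines at a 2-fold change. The points scatter on both sides of 0, from −1.91 to 2.41, with narrower intervals near the viewpoint, and no window passed an adjusted p of 0.05.

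Among windows with a mean of at least 10 RPM whose conditions did not overlap, those with the largest changes were weak and far away. The largest decreases lay at 840 to 850 kb on the higher side, with 46.5 and 81.3 RPM in DMSO and 25.04 and 9.64 after dTAG-V1 (log2 change −1.91), and at 720 to 730 kb on the lower side, with 51.7 and 20.7 RPM against 20.1 and 4.76 (−1.62). The window at 960 to 970 kb on the higher side, in the body of Atg4a, had 66.0 and 64.4 RPM in DMSO and 30.7 and 16.4 after dTAG-V1, a log2 change of −1.50 (limma, adjusted p = 0.436). This window adjoins the ZFP143 peak at the Atg4a start, whose own window, at 950 to 960 kb, had 61.5 and 59.0 RPM against 48.5 and 60.1.

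The largest increases among these windows lay at 810 to 820 kb on the lower side, with 7.47 and 1.31 RPM in DMSO and 20.3 and 24.9 after dTAG-V1 (log2 change 2.41), and at 670 to 680 kb on the same side, with 18.5 and 2.71 against 24.4 and 42.4 RPM (1.97). The third, at 700 to 710 kb on the higher side inside Mid2, which encodes an E3 ubiquitin ligase, had 10.1 and 7.16 RPM in DMSO and 23.1 and 38.5 after dTAG-V1 (1.70). None of these 6 windows passed limma's adjusted threshold. With 1 library left out, the change ran from −2.56 to −1.26 at 840 to 850 kb, from −2.55 to −0.68 at 720 to 730 kb, from 1.47 to 3.35 at 810 to 820 kb and from 0.77 to 3.16 at 670 to 680 kb, so that these sizes depend on single libraries. Weaker windows, under 10 RPM, also had increases without overlap, up to 2.24 on the log2 scale. The 3 windows with the smallest p, named after their values were seen, were stronger and nearer, and none passed (limma, adjusted p = 0.319 for each). At 190 to 200 kb on the higher side the levels were 146 and 115 RPM in DMSO and 251 and 261 after dTAG-V1, a log2 change of 0.97. At 180 to 190 kb on the lower side they were 63.9 and 95.4 against 161 and 175 RPM (1.09), and at 70 to 80 kb on that side 144 and 159 against 55.5 and 89.9 RPM (−1.09).

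Only 3 of the 196 windows reached 2 times the level expected for their distance, and all were beyond 700 kb. They lay at 720 to 730 kb on the higher side inside Mid2 (2.07 times), at 950 to 960 kb over the starts of Psmd10 and Atg4a (2.06 times), and at 780 to 790 kb on the lower side at Mum1l1 (2.04 times). In the window inside Mid2 the levels were 78.5 and 81.3 RPM in DMSO and 47.6 and 90.5 after dTAG-V1. At Mum1l1 they were 70.6 and 39.3 against 34.7 and 40.1 RPM. The conditions overlapped in all 3.

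The share of reads in each class of distance differed by at most 1.23 points between conditions, before any capping of fragments. Here 2 libraries against 2 cannot reach p = 0.05, since the smallest p of the exact permutation test is 0.333. Between 20 kb and 1 Mb lay 38.6% and 35.9% of the reads in DMSO (37.2 ± 1.91, SD, n = 2) and 37.7% and 35.7% after dTAG-V1 (36.7 ± 1.42, SD, n = 2), with Wilson intervals of at most 0.138 points on either side. The difference of −0.490 points was smaller than the SD in either condition (exact permutation test, p = 0.667), and it was −1.39 points with fragments capped at the 95th percentile. Within 20 kb of the viewpoint the shares were 13.9% and 14.6% in DMSO and 13.1% and 12.9% after dTAG-V1. This class did not overlap between conditions and differed by −1.23 points (exact permutation test, p = 0.333), or by −0.202 points with fragments capped. The class of 300 kb to 1 Mb did not overlap either, narrowly, at 13.742% and 13.612% against 13.611% and 12.961%. It differed by −0.391 points (exact permutation test, p = 0.333), or by −0.551 points with fragments capped, when the conditions overlapped. The share beyond 1 Mb on the X chromosome, 30.7% and 30.3% against 31.1% and 30.8%, was higher by 0.499 points (exact permutation test, p = 0.333), or by 0.317 points with fragments capped, when the conditions overlapped (exact permutation test, p = 1). Reads on other chromosomes made up 16.9% and 19.2% in DMSO and 18.0% and 20.6% after dTAG-V1. The fragment with the most reads took 1.67% and 2.44% of a library in DMSO and 1.70% and 4.08% after dTAG-V1.

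Seen by side, the DMSO and dTAG-V1 values separated in 3 of 6 classes of distance and side. With 2 libraries against 2 such separation is common: it held in 36.7% of the 196 windows here and in 32.3% at the other viewpoints. On the lower side at 20 to 100 kb, toward the Rbm41 body, the 193 fragments had 260 ± 22.3 RPM in DMSO and 209 ± 2.52 RPM after dTAG-V1 (SD, n = 2), a difference of −19.8%. At 100 to 300 kb on the higher side the mean went from 142 ± 4.46 to 154 ± 1.56 RPM (SD, n = 2), 8.01% higher. At 300 kb to 1 Mb on that side it was 53.3 ± 1.19 and 51.6 ± 0.841 RPM (SD, n = 2), a difference of −3.18%. The other 3 classes overlapped. These classes were compared as values and carry no test.

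Transcription of the genes around the viewpoint gives a second readout of the same 6 h. The locus held 23 protein-coding genes in the TT-seq table, of which 12 passed the count filter and were tested. Of these, 2 were called lower and 1 higher at 6 h, against 2.83% lower and 0.397% higher of the 17870 genes tested (edgeR's quasi-likelihood test, adjusted p under 0.05 and a log2 change over 0.5). In either direction, 3.23% of all tested genes were called. The other 9 were not called, 8 with a positive and 1 with a negative log2 change. These counts leave out Tbc1d8b, which the filter removed because its counts were high in DMSO alone.

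Rbm41 had 23.2 and 37.3 CPM in DMSO, 1.04 and 1.33 CPM once dTAG-V1 had acted for 2 h, 1.09 and 1.40 CPM by 6 h, and 1.28 and 2.28 CPM by 24 h. The 6 libraries after dTAG-V1 were all below both DMSO libraries, and the log2 change at 6 h was −4.59 with a standard error of 0.37 (edgeR, adjusted p = 0.00074). The study chose the viewpoint for such a fall, so this value describes the promoter and is not independent evidence. Trap1a had 34.5 and 33.3 CPM in DMSO, 15.6 and 18.1 after 2 h, 14.2 and 15.1 by 6 h, then 10.2 and 12.2 by 24 h, with a log2 change at 6 h of −1.21 with a standard error of 0.17 (edgeR, adjusted p = 0.00659). Without either of the 6 h libraries it was no longer called (edgeR, adjusted p = 0.101 and 0.0729), with log2 changes of −1.16 and −1.26. The contacts of the Trap1a region were, as given above, 39.1 and 63.3 RPM in DMSO and 68.8 and 72.6 after dTAG-V1.

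Atg4a rose, from 3.21 and 4.11 CPM in DMSO to 8.73 and 8.93 at 6 h, between values of 10.7 and 9.88 at the 2 h time point and 9.54 and 12.005 at the 24 h one. Its log2 change at 6 h was 1.26 with a standard error of 0.24 (edgeR, adjusted p = 0.0262). Leaving out any of the 4 libraries of the contrast ended the call, with adjusted p from 0.0637 to 0.161 by edgeR, while the log2 change stayed between 1.09 and 1.47. Over all genes, calls in these fits numbered 118 to 347 against 577. Psmd10, which starts next to Atg4a on the other strand, had 4.65 and 5.64 CPM in DMSO and 2.96 and 2.81 at 6 h, a log2 change of −0.84 that was not called (edgeR, adjusted p = 0.167). The pair shares 1 ZFP143 peak and the same 27 fragments of the 4C map.

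Tbc1d8b, at the strongest ZFP143 peak of the locus, had 9.10 and 11.2 CPM in DMSO, 0.398 and 0.964 CPM after 2 h, 0.156 and 0.744 CPM by 6 h, then 0.0984 and 0.456 CPM by 24 h. The DMSO libraries stand far above the other 6. It was not among the tested genes, because the filter asked for over 10 counts in 4 of 8 libraries and it had 88 and 147 counts in DMSO but 2 and 9 at 6 h. Without the filter its log2 change was −4.50 (edgeR, adjusted p = 5.74e-21). Dropping the filter also moved Rbm41, from an adjusted p of 0.00074 to 1.92e-35 by edgeR. The small p of Tbc1d8b is therefore not to be set beside those of the filtered fit. Contacts of the Tbc1d8b start with the Rbm41 viewpoint, described above, had a log2 change of −0.67 that did not pass (limma, adjusted p = 0.186). Nup62cl, whose window had the highest 4C level in RPM, had 4.76 and 8.99 CPM in DMSO and 12.004 and 8.76 at 6 h, so its groups overlapped (log2 change 0.58, edgeR, adjusted p = 0.410). At 24 h it had 14.2 and 19.2 CPM, above both DMSO libraries. Prps1, an enzyme of nucleotide synthesis 459.1 kb away on the higher side, had 66.9 and 56.8 CPM in DMSO and 102 and 91.8 at 6 h, and its log2 change of 0.65 missed the threshold (edgeR, adjusted p = 0.0982), which it passed with DESeq2 and with the replicate block. Morc4, on the lower side, had 0.931 and 1.30 CPM in DMSO and 2.88 and 1.65 at 6 h, so that both 6 h libraries were above both DMSO libraries (log2 change 1.01, edgeR, adjusted p = 0.234).

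**Figure D5:**
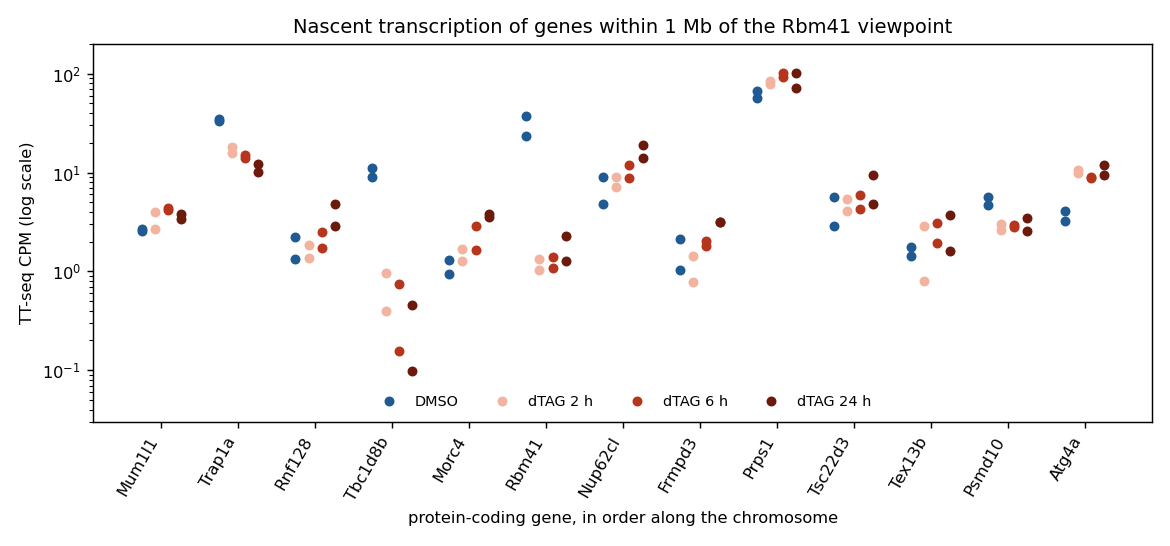
TT-seq level (CPM, log axis) of the 12 tested protein-coding genes around the Rbm41 viewpoint and of Tbc1d8b in each of the 8 libraries, in DMSO and at 3 times of dTAG-V1 treatment, with 2 points per group. Rbm41 and Tbc1d8b are under 2.5 CPM in every dTAG-V1 library, Trap1a is lower and Atg4a higher than in DMSO, and Nup62cl overlaps between DMSO and 6 h.

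The other 6 viewpoints of the series place these numbers. Called windows were 3 of 1176 (0.255%), 2 lower at Cldn1 and 1 higher at Zfp108. The replicate block called 0 at Cldn1 and 1, higher, at Zfp108. At an unadjusted p under 0.05 there were 68 (5.78%), or 6 to 19 per viewpoint, where Rbm41 had 13. Conditions did not overlap in 32.3% of the other windows, or 56 to 70 of the 196 at each viewpoint, and in 36.7% at Rbm41, 72 windows. At Prmt6, another promoter viewpoint, the interval of the change lay within 2-fold for 11.2% of windows, and at Sik1, the control viewpoint, for 35.2%, against 25.5% at Rbm41. Their depth differed: the shallowest library, Prmt6 in DMSO replicate 2, held 53823 reads, and at Sik1 a single fragment took 37.4% to 50.1% of the reads. The share of reads between 20 kb and 1 Mb was 22.5% and 18.7% in DMSO and 22.3% and 21.9% after dTAG-V1 at Prmt6, and 29.5%, 27.1%, 29.0% and 22.0% at Sik1 in that order. It was higher in every Rbm41 library than in any of these. No test of a difference between viewpoints was made.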

How the data were processed

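The authors mapped 4C reads to mm10 with BWA and deposited 1 table of RPM values (reads scaled to library size) per fragment for 28 libraries of 7 viewpoints. Every value was a whole multiple of the worth of 1 read within 0.01, so the reads were recovered. For TT-seq, the authors aligned reads with STAR, counted them per gene with HTSeq and deposited raw counts. Peak lists, 1 per factor, give positions and, for ZFP143, the fold over input as the authors deposited it. The CTCF list pools conditions.

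The mean RPM per fragment of 10 kb windows with at least 5 fragments, and of regions 5 kb on each side of protein-coding gene starts and peak centres, was compared on the log2(value + 1) scale with limma 3.58.1 in R 4.3.3 (trend, 2-sided, Benjamini-Hochberg). A fold change on this scale understates that of low values. Recovered reads were tested with edgeR 4.0.16. TT-seq used edgeR's quasi-likelihood test with TMM over 8 libraries of 9721568 to 16532077 counts and over 10 counts in at least 4 libraries. Shares of reads used the exact 2-sided permutation test. The intervals of shares of reads and the limits for 0 reads cover counting error only, those of log2 changes rest on the spread between libraries, and PCR reads without molecular identifiers are not independent molecules. Genes came from GENCODE and sequences from RefSeq, both on GRCm38. Alternatives were pseudocounts, filters, scalings, window and region sizes, capped fragments, DESeq2 1.42.0 and each library left out. The fits were also run on simulated data with independent noise of the kind each fit assumes. Those runs check the code and are no evidence on the results. Named windows were those with the 3 largest decreases and the 3 largest increases among windows of at least 10 RPM whose conditions did not overlap, and those at 2 times the expected level. Named regions were those of Nup62cl, of ZFP143 peaks, the 3 gene starts with the highest levels, and both CTCF peaks. The members, lists and tests were chosen with earlier results of these data known.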

Additional observations from a re-analysis of the deposited data

How the results depend on the processing

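With 2 replicates a condition, precision at weak windows and the share taken by single fragments limit the 4C results. No window was called under any alternative that kept 10 kb windows or with any library left out (0 to 0), whereas 50 kb windows gave 1 call, higher at 920 to 970 kb on the lower side (log2 change 0.56, limma, adjusted p = 0.0383). Regions of 10 kb on each side gave 3 calls, all lower at the Psmd10 and Atg4a start, and leaving out 1 library gave 0 to 8. For the other viewpoints, edgeR gave 5 and the replicate block 1 against 3. Replicate numbers were not said to pair the samples. The correlation of same-numbered deviations was −0.0132 over the 196 windows of Rbm41, and −0.0774 (Cpox) to 0.148 (Zfp111) at the other viewpoints. It was 0.193 to 0.631 over the 6 pairs of TT-seq groups (0.193 for DMSO and 6 h), with only 2 numbers. The replicate block gave 0 windows and 0 regions called at Rbm41, and 4 locus genes in TT-seq, adding Prps1, with 1315 calls over all genes against 577. DESeq2 gave 770, no filter 1318, and 1 library left out 118 to 347. Locus genes called were 3, 5 without the filter (Tbc1d8b and Prps1 added), 4 by DESeq2, and 1 to 2 with 1 library left out.

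Capping fragments at the 95th percentile turned the share at 100 to 300 kb to −0.0402 points from 0.322, moved that at 20 to 100 kb to −0.797 from −0.421, and turned the log2 change of the Nup62cl region to −0.0543, of Pih1h3b to −0.0692, of the CTCF region at 185.7 kb to −0.0898 and of the Nup62cl window to −0.0464. Regions of 2 kb on each side gave −0.0129 at Nup62cl. With 1 library left out, differences in share ran from −1.18 to 0.343 points at 20 to 100 kb, −0.202 to 0.845 at 100 to 300 kb, −0.716 to −0.0658 at 300 kb to 1 Mb, −1.84 to 0.862 at 20 kb to 1 Mb, 0.336 to 0.661 beyond 1 Mb, −0.0552 to 2.50 on other chromosomes and −1.58 to −0.882 under 20 kb. Log2 changes ran from −0.23 to 0.32 at the Nup62cl region, −0.22 to 0.32 in its window, −0.21 to 0.36 at Pih1h3b, −0.57 to 0.26 at Ripply1 and −0.74 to 0.18 in the window inside Mid2. The causes were not tested.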
